A study of Homo sapiens with 2 samples.

Results

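The metallothioneins, the SLC30 and SLC39 zinc transporters and the zinc-sensing factor MTF1 were examined in HuES53 and HuES64, 2 embryonic stem cell lines of human origin. The members were taken by gene symbol: MT1 followed by a letter, MT2A, MT3, MT4, MTF1, SLC30A and SLC39A. They numbered 37 of 25436 gene symbols in the deposited table, namely 12 metallothioneins, 10 SLC30 genes, 14 SLC39 genes and MTF1. The set as a whole was selected on the measured FPKM of the metallothioneins, which had been seen to differ between the lines, so every difference is given as a description. Both lines are diploid, undifferentiated and below passage 20, were derived from embryos of in vitro fertilization, and were the controls of a study of haploid embryonic stem cells. The labels name no treatment. Each line gave 1 library of polyadenylated RNA, so a difference describes these libraries and has no replicate check and no p-value. Effects of the line and of its library cannot be told apart.

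Metallothioneins are small proteins rich in cysteine that bind zinc, copper and cadmium and buffer zinc inside the cell. SLC30 proteins (ZnT) mostly move zinc out of the cytosol, across the plasma membrane or into organelles, and SLC39 proteins (ZIP) move it into the cytosol. MTF1, a transcription factor that senses free zinc, binds metal response elements in the promoters of metallothionein genes and of SLC30A1, and metals, glucocorticoids and interferon are known inducers of metallothioneins in many tissues.

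The coding sequences show how alike the metallothionein genes are, which bears on how well fragments of 1 gene can be told from those of another. The sequences of 4 genes are shown from GENCODE release 29 on GRCh38, where all lie on chromosome 16: MT2A, MT1M as an MT1 gene with a large difference between the lines, and MT1F and MT1X as the expressed MT1 genes with the smallest. In-frame TGC and TGT codons, which code for cysteine, are in capitals.
MT2A: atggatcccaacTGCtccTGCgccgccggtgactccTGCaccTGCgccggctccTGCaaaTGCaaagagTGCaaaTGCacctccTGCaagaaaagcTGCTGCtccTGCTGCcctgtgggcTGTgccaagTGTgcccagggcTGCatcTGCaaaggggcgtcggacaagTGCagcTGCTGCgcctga
MT1M: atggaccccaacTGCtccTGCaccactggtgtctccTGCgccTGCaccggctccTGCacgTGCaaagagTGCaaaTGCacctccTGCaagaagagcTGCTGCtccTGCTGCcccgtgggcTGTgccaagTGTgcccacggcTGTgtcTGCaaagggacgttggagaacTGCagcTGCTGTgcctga
MT1F: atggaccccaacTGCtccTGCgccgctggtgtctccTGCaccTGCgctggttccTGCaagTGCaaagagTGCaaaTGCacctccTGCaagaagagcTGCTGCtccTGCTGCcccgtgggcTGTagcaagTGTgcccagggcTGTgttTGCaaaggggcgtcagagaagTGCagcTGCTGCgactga
MT1X: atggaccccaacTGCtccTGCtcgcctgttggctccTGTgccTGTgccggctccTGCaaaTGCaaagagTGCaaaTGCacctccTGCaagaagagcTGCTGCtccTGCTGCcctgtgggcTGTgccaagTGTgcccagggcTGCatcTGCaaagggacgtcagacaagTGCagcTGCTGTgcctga
The capitals run through the whole reading frame: MT2A and 6 of the 7 MT1 genes compared had 20 such codons among 61 before the stop codon, and MT1B had 21. Any pair of these 7 MT1 coding sequences was 88.7% to 94.6% identical, and MT1G was the closest to MT2A, at 95.2%. MT4, a form of stratified epithelium, was further away, with 70.9% to 75.7% identity to the others. Of all 50-base windows of the chosen transcript, 4.88% for MT2A, 7.05% for MT1M and 3.59% for MT1F also occurred in a transcript of another gene. Such shares depend on the transcript chosen. That of MT2A begins at 56608199 on GRCh38, before the RefSeq start used below for its promoter, so its share may be too low for a shorter form. The share was 20.2% for MT1G, 20.4% for MT1H and 45.1% for MT1X, and 29.2% of all MT1X windows occurred in a transcript of AC026461.1. How the authors' counting treated fragments from such shared stretches is not given in the sources used here, so the value of a single metallothionein is uncertain to that extent.

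The promoters are shown because metal response elements are the best known feature of metallothionein control. The 250 bases before the start are from RefSeq on GRCh38.p14, and capitals mark each TGCACNC or TGCGCNC, the core of that element, on either strand. MT2A, MT1X and SLC30A1 were set by a rule, and MT1H was added after its values were seen, as the other well expressed MT1 gene with an entry. The windows lie at chr16:56608334-56608583 (plus strand) for MT2A, chr16:56669564-56669813 (plus strand) for MT1H, chr16:56682220-56682469 (plus strand) for MT1X and chr1:211579162-211579411 (minus strand) for SLC30A1.
MT2A: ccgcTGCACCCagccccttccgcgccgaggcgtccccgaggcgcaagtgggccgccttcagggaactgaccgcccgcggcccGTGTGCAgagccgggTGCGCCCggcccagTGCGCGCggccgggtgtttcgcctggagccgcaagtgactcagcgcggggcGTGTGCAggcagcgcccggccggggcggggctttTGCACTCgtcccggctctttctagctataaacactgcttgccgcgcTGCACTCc
MT1H: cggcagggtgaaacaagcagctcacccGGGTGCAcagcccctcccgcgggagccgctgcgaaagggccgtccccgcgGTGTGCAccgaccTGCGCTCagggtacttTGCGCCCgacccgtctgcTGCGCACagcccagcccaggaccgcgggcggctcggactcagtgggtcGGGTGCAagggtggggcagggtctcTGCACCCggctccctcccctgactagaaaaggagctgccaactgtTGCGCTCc
MT1X: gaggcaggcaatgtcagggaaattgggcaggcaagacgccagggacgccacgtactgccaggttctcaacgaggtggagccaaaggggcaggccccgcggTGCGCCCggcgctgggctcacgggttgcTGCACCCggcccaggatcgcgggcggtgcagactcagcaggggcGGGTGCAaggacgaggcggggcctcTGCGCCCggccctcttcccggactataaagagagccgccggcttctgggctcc
SLC30A1: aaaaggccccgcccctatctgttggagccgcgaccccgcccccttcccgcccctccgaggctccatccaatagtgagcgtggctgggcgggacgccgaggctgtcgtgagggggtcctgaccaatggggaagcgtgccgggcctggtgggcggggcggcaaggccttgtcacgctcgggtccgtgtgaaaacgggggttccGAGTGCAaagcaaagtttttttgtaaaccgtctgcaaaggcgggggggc
The MT2A window held 7 matches and that of MT1H held 8. MT1X had 4 matches, and SLC30A1 had 1, with another in the 50 bases after the start. Matches on the strands were counted separately. Of 35116 promoter windows of this length, 24.8% held at least 1 match, 0.37% held at least 4 and 0.0313% held at least 7. MT4 and MT1B, which were at or near 0 FPKM, had 3 matches each. MTF1 itself had none, and of 30 windows of 21 zinc transporter genes 11 held at least 1, with a highest count of 3 at SLC30A2. A match is a stretch of letters, not a measured site. The MT2A window lies within the span of the GENCODE transcript chosen above, and the end of the MT1X window overlaps that of MT1X. For these genes the sources place the start differently.

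Metallothionein transcripts were lower in HuES53 than in HuES64, with the exception of MT1X. Levels are in FPKM, fragments scaled by transcript length and by mapped fragments. Of the 12 genes, 9 averaged 1 FPKM or more across HuES53 and HuES64 and count as expressed, and 8 of these 9 were at least 2-fold lower in HuES53. MT1A is among the 8, and it reached that mean through HuES64 alone, so its place there was partly set by the filter. With a mean of at least 5 FPKM, which leaves MT1A out, the count was 7. Of the 13790 expressed genes in the table, 1.70% reached that size toward HuES64, and 2.15% reached it toward HuES53. Differences are HuES53 minus HuES64 on the scale of log2(FPKM + 1). The metallothionein median was -1.55, against 0.03 for all genes tested. In bulk RNA, fewer cells with a transcript and less of it per cell cannot be told apart.

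MT2A, the most abundant metallothionein of both lines and of most human tissues, had 113 FPKM in HuES53 and 635 FPKM in HuES64. Its difference of -2.49, or 5.60-fold higher in HuES64, was the largest of the family, and 0.203% of all genes tested had a lower value. Its row spans 56642478 to 56643409 on chromosome 16 by the coordinates as deposited. By level it ranked 887 of all gene symbols in HuES53 and 156 in HuES64.

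The MT1 genes, a tandem array of duplicates, spread over a wide range of levels. MT1G had 105 FPKM in HuES53 and 308 FPKM in HuES64, and MT1H had 65.6 FPKM in HuES53, 194 in HuES64. These neighbouring genes differed by the same amount, -1.55 each. MT1E had 41.6 FPKM in HuES53 and 161 FPKM in HuES64, a difference of -1.92. MT1M had 10.6 FPKM in HuES53 and 54.8 FPKM in HuES64, a difference of -2.26 and 4.80-fold on this scale. These 4 genes were 2.92-fold to 4.80-fold higher in HuES64.

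The low members MT1A and MT1L leaned the same way. MT1A had 0.857 FPKM in HuES53 and 8.03 FPKM in HuES64, a difference of -2.28. At the apparent depth of the libraries, where 1 FPKM over 1 kb is about 18.6 fragments in HuES53 and 15.2 in HuES64, these levels stood for about 3 fragments in HuES53 and 24 in HuES64. The plain ratio was 9.37 times higher in HuES64, with an exact binomial 95% interval of 2.97 to 50.7 that covers counting error only. The interval tests nothing, since MT1A is among the genes the set was selected on and reached a mean of 1 FPKM through HuES64 alone. MT1L, which GENCODE lists with no coding transcript, had 6.15 FPKM in HuES53 and 17.1 FPKM in HuES64, a difference of -1.34. With its short transcript these levels stood for about 5.19 fragments in HuES53 and 11.8 in HuES64, so it too rests on few fragments.

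MT1F and MT1X were the least different of the expressed metallothioneins. MT1F had 43.2 FPKM in HuES53 and 93.3 FPKM in HuES64. Its difference of -1.09 was just past the 2-fold size, and it was -0.85 with TPM scaling and -0.99 once corrected for GC content and length. MT1X had 103 FPKM in HuES53 and 97.1 FPKM in HuES64, a difference of 0.08. It was the only expressed metallothionein not lower in HuES53. With the other pseudocounts and scalings and with the trend removed, its difference stayed above 0, between 0.05 and 0.33.

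**Figure D1:**
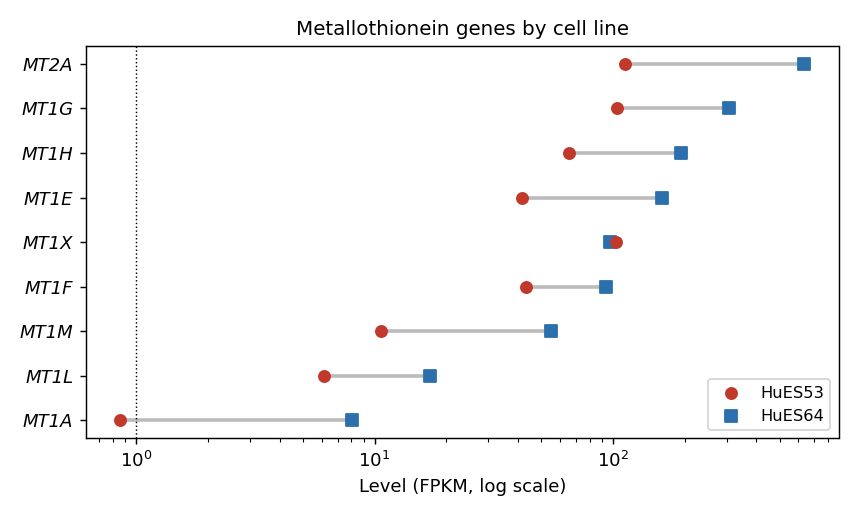
Levels of the 9 metallothionein genes above 0 in both lines, in FPKM on a log axis, with HuES53 as circles and HuES64 as squares, 1 library each. The dotted line marks 1 FPKM. In 8 genes the circle lies left of the square, and for MT1X (103 FPKM in HuES53, 97.1 in HuES64) the symbols nearly coincide.

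The make-up of the metallothionein signal differed between the lines. Summed over the family, the level was 488 FPKM in HuES53 and 1569 FPKM in HuES64, and without MT1X it was 385 FPKM in HuES53 and 1472 FPKM in HuES64. MT2A made 23.1% of the sum in HuES53 and 40.5% in HuES64, while MT1X made 21.1% in HuES53 and 6.19% in HuES64. The ratio of MT1X to MT2A was 0.914 in HuES53 and 0.153 in HuES64. MT1G (21.4% in HuES53, 19.6% in HuES64), MT1H (13.4% in HuES53, 12.4% in HuES64) and MT1E (8.53% in HuES53, 10.2% in HuES64) had similar shares. The order of levels differed as well: MT1X came next after MT2A and MT1G in HuES53, while in HuES64 MT1H and MT1E also stood above it. With 1 library per line, whether neighbours in either order differ beyond the spread between libraries cannot be told.

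**Figure D2:**
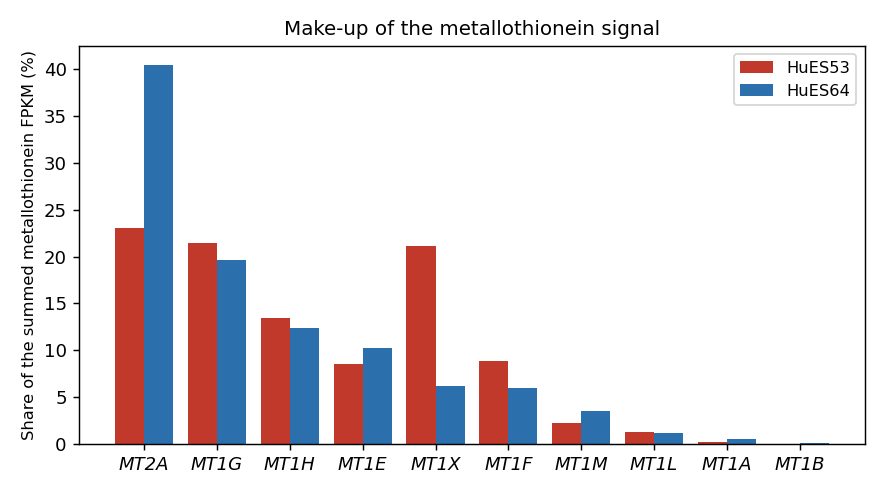
Share of each gene in the summed metallothionein FPKM of its line, in percent, with HuES53 bars left and HuES64 bars right for each gene. MT2A holds 23.1% in HuES53 and 40.5% in HuES64, and MT1X holds 21.1% in HuES53 and 6.19% in HuES64.

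The remaining metallothioneins were at or near 0. MT3, first described as a growth inhibitory factor of brain, and MT4 were listed at 0 in both lines. MT1B was listed at 0 in HuES53 and had 0.382 FPKM in HuES64, which at the apparent depth is about 1 fragment. Among pseudogene rows that are no members, MT1JP had 2.15 FPKM in HuES53 and 9.51 FPKM in HuES64, a difference of -1.74. MT1IP was listed at 0 in HuES53 and had 0.181 FPKM in HuES64, and MT1DP was listed at 0 in both.

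The expressed neighbours of the cluster were under 2-fold different, as were most genes tested. The metallothionein rows lie together over 119 kb, from 56598961 to 56718108 on chromosome 16 by the coordinates as deposited, and the expressed ones over 75.6 kb of it. MT2A opens the expressed stretch and MT1X closes it, so the largest and the smallest difference stand at its ends. Per GENCODE, MT1G is on the minus strand, and MT2A, MT1E, MT1M, MT1F, MT1H and MT1X are on the plus strand. The nearest expressed gene before the cluster, BBS2, which encodes a protein of primary cilia, ended 45.0 kb away and had 14.8 FPKM in HuES53 and 11.7 FPKM in HuES64. The nearest after it, the nuclear pore gene NUP93, began 45.9 kb away and had 62.1 FPKM in HuES53, 63.0 in HuES64. Within 500 kb on either side, 9 other genes were expressed, and none of them was 2-fold different, against 3.86% of all genes tested in either direction. At that share, none among 9 is the usual outcome. The differences of these 9 genes ran from -0.02 to 0.42 with a median of 0.11. The highest of them besides NUP93 were the RNA processing gene NUDT21 (61.8 FPKM in HuES53, 56.3 in HuES64) and OGFOD1 (27.6 FPKM in HuES53, 25.5 in HuES64).

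**Figure D3:**
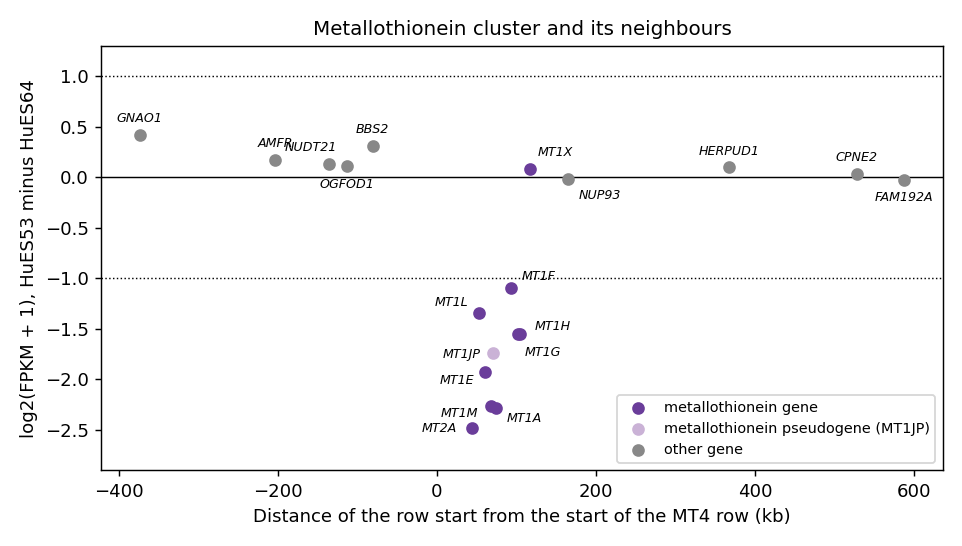
Difference in log2(FPKM + 1), HuES53 minus HuES64, of each expressed gene in and around the metallothionein cluster, against the distance of its row start from that of MT4 in kb. Dotted lines mark a 2-fold difference. The metallothioneins between MT2A (-2.49) and MT1H (-1.55) lie below the lower line, MT1X (0.08) lies with the flanking genes, and the flanking genes lie between -0.02 and 0.42.

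The differences of all genes were related to base composition, so the members' own composition is given beside them. The median difference was 0.30 in the tenth of genes lowest in transcript GC content and -0.31 in the tenth highest. The 9 expressed metallothioneins had a GC content of 50.5% to 61.2%, and MT1X, at 52.5%, lay near MT1G at 52.8%. Their transcripts were short, with median lengths of 244.5 to 704 bases, and the tenth of genes with the shortest transcripts had a median difference of 0.05. Once the trends with GC content and length were removed, the metallothionein median was -1.49, and 7 of 9 were at least 2-fold lower in HuES53.

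MTF1 had 1.89 FPKM in HuES53 and 1.22 FPKM in HuES64, a difference of 0.38, and 0.04 with the trend removed. The factor that activates metallothionein genes was at a low level in both lines and under 2-fold different.

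SLC30A1, the zinc exporter of the plasma membrane and the best known target of MTF1 next to metallothioneins, was under 2-fold different. It had 4.76 FPKM in HuES53 and 3.23 FPKM in HuES64, a difference of 0.44 that was -0.02 with the trend removed. Whether MTF1 had a part in the metallothionein difference was not tested. The other SLC30 genes expressed encode transporters of membranes inside the cell. SLC30A9, which moves zinc out of mitochondria, was the highest of the family, at 41.0 FPKM in HuES53 and 35.8 FPKM in HuES64. SLC30A5 (25.6 FPKM in HuES53, 21.0 in HuES64) and SLC30A6 (12.3 FPKM in HuES53, 8.93 in HuES64) encode partners in a complex of the early secretory pathway that loads zinc into enzymes such as alkaline phosphatase. SLC30A7, which acts in the same compartment, had 4.38 FPKM in HuES53, 3.45 in HuES64, and SLC30A3, known from synaptic vesicles, had 2.11 FPKM in HuES53, 1.62 in HuES64.

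All 6 expressed SLC30 genes were higher in HuES53, by 0.19 to 0.44, as were 52.5% of all genes tested. None was 2-fold different, against 3.86% of all genes in either direction, and the median was 0.28. Their median GC content was 39.0%, and the median was 0.08 after removal of the trends with GC content and length, against 0.04 for all genes with a reference transcript. SLC30A3 alone, at 62.7% GC, moved up, to 0.63. The other 4 members stayed below 1 FPKM. SLC30A10, a manganese exporter, had 0.562 FPKM in HuES53 and 0.172 FPKM in HuES64. SLC30A4, an endosomal transporter that overlaps another gene in the table, had 0.0948 FPKM in HuES53, 0.0329 in HuES64. SLC30A2, of secretory vesicles in the mammary gland, had 0.0251 FPKM in HuES53 but was listed at 0 in HuES64, and SLC30A8, of insulin granules, was listed at 0 in both.

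The SLC39 importers differed gene by gene. SLC39A8, which carries zinc, manganese and cadmium across the plasma membrane, had 18.5 FPKM in HuES53 and 7.04 FPKM in HuES64. Its difference of 1.28, or 2.42-fold, made it the only zinc transporter past the 2-fold size. With the other pseudocounts and scalings and with the trend removed, the difference of SLC39A8 was 1.15 to 1.55. Its row spans 103172198 to 103266655 on chromosome 4 by the coordinates as deposited. SLC39A10, an importer of the plasma membrane that Mtf1 is known to repress in mouse cells, had 74.2 FPKM in HuES53 and 40.1 FPKM in HuES64. Its difference was 0.87, and 1.12 with TPM scaling, which moves the median of all genes by 0.23. SLC39A14, an importer of zinc, manganese and iron closely related to SLC39A8, had 60.0 FPKM in HuES53 and 41.0 FPKM in HuES64, a difference of 0.54 that was 0.70 with the trend removed. SLC39A8, SLC39A10 and SLC39A14 were the members with the largest differences toward HuES53.

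The most abundant importers, SLC39A7 and SLC39A1, differed by 1.07-fold and 1.20-fold. SLC39A7, which releases zinc from the endoplasmic reticulum, had 124 FPKM in HuES53 and 133 FPKM in HuES64. SLC39A1, a widely expressed importer of the plasma membrane, had 106 FPKM in HuES53, 127 in HuES64. SLC39A10 and SLC39A14 came next in level, ahead of the remaining importers. SLC39A6, which pairs with SLC39A10, had 17.8 FPKM in HuES53, 15.9 in HuES64, and SLC39A3 had 21.2 FPKM in HuES53, 29.4 in HuES64, a 1.37-fold difference. Among importers of the Golgi and secretory pathway, SLC39A13 had 11.1 FPKM in HuES53 and 15.5 FPKM in HuES64 (1.36-fold), SLC39A9 had 13.9 FPKM in HuES53, 11.6 in HuES64, and SLC39A11 had 6.97 FPKM in HuES53, 7.01 in HuES64. SLC39A4, the intestinal importer mutated in acrodermatitis enteropathica, had 6.23 FPKM in HuES53, 6.63 in HuES64.

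SLC39A5, an importer known from pancreas and gut, was the zinc transporter furthest toward HuES64. It had 1.18 FPKM in HuES53 and 2.996 FPKM in HuES64, a difference of -0.87, and it overlaps another gene in the table. At the apparent depth these levels stood for about 9.06 fragments in HuES53 and 18.8 in HuES64. With a pseudocount of 0.1 FPKM the difference was -1.27, and with the trend removed it was -0.55. SLC39A2 had 0.199 FPKM in HuES53 and 0.216 FPKM in HuES64, and SLC39A12, a brain form, was listed at 0 in both. Of the 12 expressed SLC39 genes, 5 were higher in HuES53 and 7 in HuES64, with a median of -0.04. With TPM scaling that median was 0.18, below the median of all genes by 0.07, as it was with the deposited values.

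**Figure D4:**
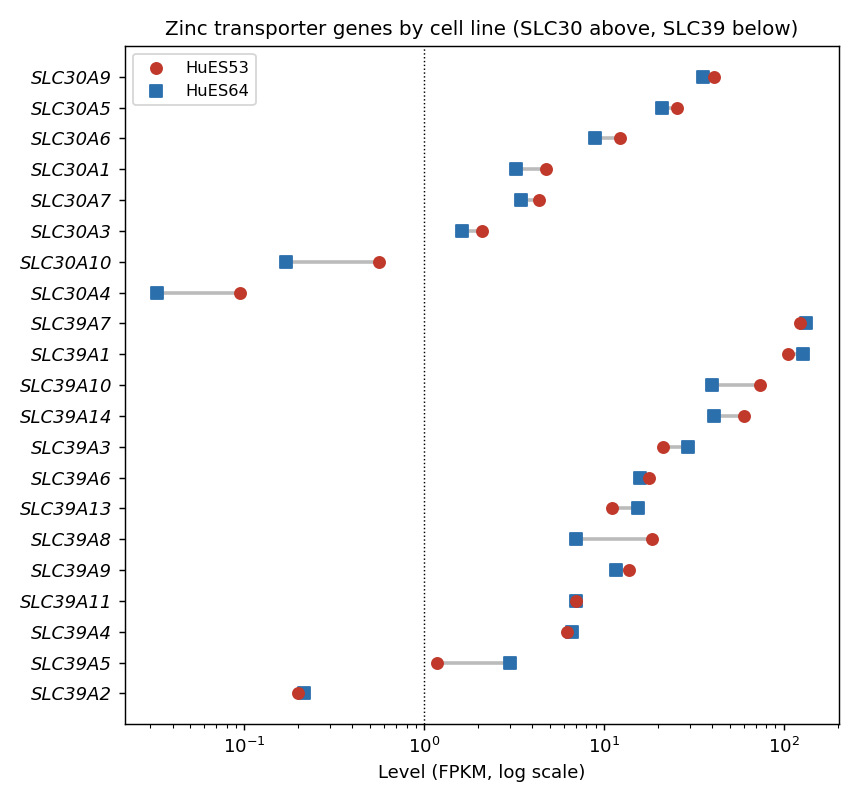
Levels of the zinc transporter genes above 0 in both lines, in FPKM on a log axis, with HuES53 as circles and HuES64 as squares, SLC30 genes above and SLC39 genes below. The dotted line marks 1 FPKM. The circle lies right of the square in all SLC30 genes shown, and the widest gap among SLC39 genes of more than 5 FPKM is that of SLC39A8 (18.5 FPKM in HuES53, 7.04 in HuES64).

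Set against the whole transcriptome, the families fell in different places. Summed levels were 90.9 FPKM in HuES53 and 74.2 FPKM in HuES64 for SLC30, and 461 FPKM in HuES53, 438 in HuES64 for SLC39, while the metallothionein sum was 3.21 times higher in HuES64. The summed FPKM of all genes was 601128 in HuES53 and 713421 in HuES64. Scaled to that total, the metallothionein sum was 2.71 times higher in HuES64. Of the 28 members tested, 1 reached the 2-fold size toward HuES53 and 8 reached it toward HuES64. Over all genes tested 297 did so toward HuES53 and 235 toward HuES64, a share of 55.8% toward HuES53 that was 79.5% with TPM scaling. In the whole table, 1.4% of genes tested or fewer had a difference below that of each of the 8 metallothioneins, and 98.9% had one below that of SLC39A8.

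**Figure D5:**
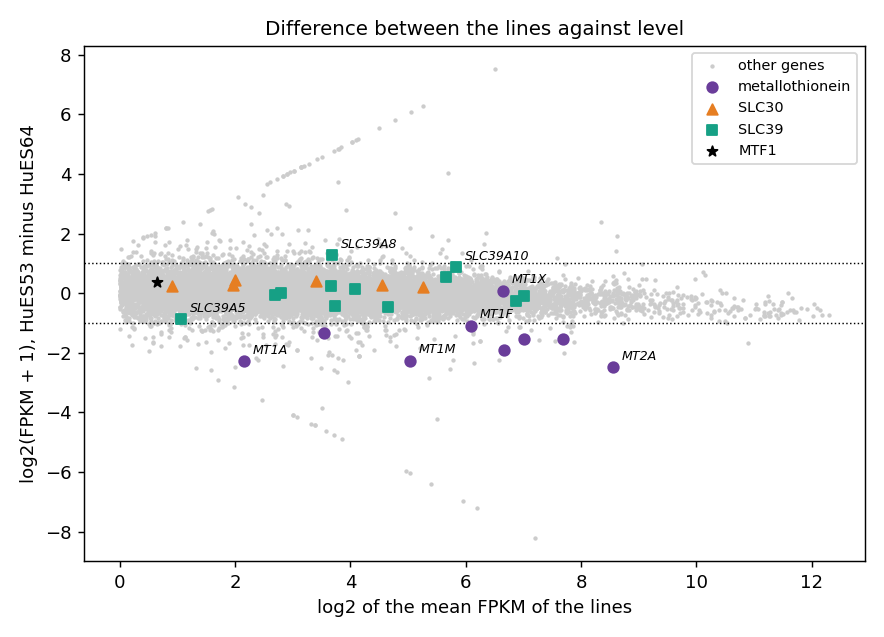
Difference in log2(FPKM + 1), HuES53 minus HuES64, against the log2 of the mean FPKM for expressed genes, with the members in colour. Dotted lines mark a 2-fold difference. Among the members, 8 metallothioneins lie below the lower line and SLC39A8 (1.28) above the upper one.

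Other genes of metal handling were mostly under 2-fold different, as were most genes tested. Over all genes tested, 3.86% reached that size in either direction and 1.70% toward HuES64, so none in a list this short is the usual outcome. Of 13 expressed genes of zinc, magnesium and manganese handling, 9 were higher in HuES53, as were 52.5% of all genes tested. None was 2-fold different, and the median was 0.20. The highest were TMEM165 (55.8 FPKM in HuES53, 43.1 in HuES64), the Golgi calcium and manganese pump ATP2C1 (33.7 FPKM in HuES53, 23.3 in HuES64) and the magnesium transporter SLC41A3 (19.3 FPKM in HuES53, 23.8 in HuES64). Copper handling had 2 of 11 genes at least 2-fold higher in HuES64 and a median of -0.26. CCS, the copper chaperone of superoxide dismutase, had 25.4 FPKM in HuES53 and 54.9 FPKM in HuES64, a difference of -1.08 that was -0.74 with the trend removed. SCO2, a copper protein for cytochrome c oxidase that overlaps another gene in the table, had 7.97 FPKM in HuES53, 19.8 in HuES64, a difference of -1.21 and likewise -0.74 with the trend removed. SOD1 (244 FPKM in HuES53, 266 in HuES64), ATOX1 (150 FPKM in HuES53, 190 in HuES64) and COX17 (120 FPKM in HuES53, 148 in HuES64) led that list. No iron handling gene of 13 was 2-fold different, with a median of 0.13 and the ferritin genes FTL (2082 FPKM in HuES53, 2580 in HuES64) and FTH1 (954 FPKM in HuES53, 1054 in HuES64) highest, followed by PCBP1 (400.2 FPKM in HuES53, 367.5 in HuES64).

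Genes that heavy metals, oxidants or glucocorticoids are known to induce are described as groups. Whether such an inducer had a part in the metallothionein difference was not tested. None of 14 genes of the response to heavy metals and oxidants was 2-fold different, against 3.86% of all genes tested in either direction. Of these 14, 10 were higher in HuES53, as were 52.5% of all genes tested, and the median was 0.32. Their differences ran from -0.81 to 0.90. TXN, which encodes thioredoxin, had 814 FPKM in HuES53 and 901 FPKM in HuES64, the autophagy receptor gene SQSTM1 had 58.1 FPKM in HuES53, 65.9 in HuES64, and the heat shock gene HSPA1B had 64.4 FPKM in HuES53, 34.1 in HuES64. Of 7 expressed genes induced by glucocorticoids 5 were higher in HuES53, as were 52.5% of all genes tested, and the median was 0.15. SGK1, a kinase gene of that list, had 37.0 FPKM in HuES53 and 11.7 FPKM in HuES64, a difference of 1.58. It was the only 1 of the 7 past the 2-fold size, which 2.15% of all genes tested reached toward HuES53. FKBP5 (16.5 FPKM in HuES53, 17.8 in HuES64) and TSC22D3 (13.8 FPKM in HuES53, 11.4 in HuES64) had differences of -0.10 and 0.25. With the trend removed these were -0.42 for FKBP5 and 0.38 for TSC22D3.

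Markers of pluripotent cells were high in both lines, with POU5F1 at 1053 FPKM in HuES53 and 1381 FPKM in HuES64, TDGF1 at 723 FPKM in HuES53, 528 in HuES64 and LIN28A at 430.2 FPKM in HuES53, 448 in HuES64. Of 6 fibroblast markers, 5 were expressed. Of these 5, 4 were higher in HuES64 and 1 was higher in HuES53, as were 52.5% of all genes tested. Their median difference was -0.38, and -0.20 with the trend removed. The summed level of the 6 was 212 FPKM in HuES53 and 229.6 FPKM in HuES64. COL1A1 had 138 FPKM in HuES53, 168 in HuES64, COL1A2 had 66.5 FPKM in HuES53, 46.7 in HuES64 and COL3A1 had 3.08 FPKM in HuES53, 8.00 in HuES64, while DCN was at 0.199 FPKM in HuES53, 0.438 in HuES64. COL3A1 was the only 1 of the 5 past the 2-fold size, which 1.70% of all genes tested reached toward HuES64. Of 4 markers of hepatocyte-like endoderm, AFP had 7.25 FPKM in HuES53 and 1.53 FPKM in HuES64, APOA1 had 113 FPKM in HuES53, 152 in HuES64, TTR had 4.58 FPKM in HuES53, 5.60 in HuES64, and ALB was listed at 0 in HuES64. The 4 neural markers averaged under 1 FPKM, with PAX6 at 1.19 FPKM in HuES53, 0.720 in HuES64, DCX at 0.686 FPKM in HuES53, 0.365 in HuES64 and MAP2 at 0.242 FPKM in HuES53, 0.304 in HuES64. The part of other cell types in the metallothionein difference was not tested.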

How the data were processed

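Polyadenylated RNA of 1 library per line was sequenced from Illumina TruSeq libraries (per the labels' protocols). TopHat2 2.0.4 and Cufflinks 2.0.2 are named, with no role, in the submitters' processing notes. Not given in the sources used here are build, annotation and strand setting. The deposited table holds FPKM values, made by the authors, in 25593 rows. Row starts count from 0 (1271 of 1310 microRNA rows had the RefSeq length on that reading) and are printed counting from 1. No member shared a start or end with its GRCh38 row, so coordinates were not mixed.

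Left out were 136 rows of chromosome Y, and rows of 21 repeated symbols were summed. Differences used a pseudocount of 1 FPKM, which understates the change of low genes, and a mean of at least 1 FPKM, with Python 3.11.15, numpy and pandas. A 2-fold size counts as different. No test was possible with 1 library per line. The members and lists were chosen with earlier results of these data known. From each list the text names the 3 highest genes and any that is 2-fold different, and every member is named. BBS2, MT1IP, MT1DP, AC026461.1, DCN and ALB were named in addition, after their values were seen.

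GC content and length came from GENCODE release 29 by symbol (11916 genes, 86.4% of those tested), and the trend was removed as medians over 20 bins of each in 5 rounds. The calculation was checked on simulated data that held a trend with GC content but none with length. Recovery was scored there for genes of at least 5 FPKM, so lower members and the length step were not checked. Depth is not stated. Olfactory receptor rows fell on steps (16 of 19 low values in HuES53 and 8 of 11 in HuES64 within 3% of a whole fragment, for an assumed fragment of 200 bases). The step was fitted to these same values, and its size was set by 8 of them in HuES53 and by only 3 in HuES64. It puts 1 FPKM over 1 kb at about 18.6 fragments in HuES53 and 15.2 in HuES64, so the fragment numbers are rough. Alternatives were other pseudocounts, filters and scalings, the highest row of a repeated symbol, removal of the trend, and leaving out short or overlapping loci. Of the members, 27 had promoter entries in RefSeq, and coding sequences were read from GENCODE, of which some are not reported here.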

Additional observations from a re-analysis of the deposited data

How the results depend on the processing

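Across 11 alternatives MT2A, MT1A, MT1E, MT1G, MT1H, MT1L and MT1M kept their direction and their 2-fold size wherever they were tested, MT1A in 10 of them, as it has no value at a mean of at least 5 FPKM. For a single member, changes of filter, of repeated symbols and of the loci kept leave the value as it is. Only the pseudocounts, scalings and trend removal could change that value. MT1F fell under 2-fold in 2 of the 11, with TPM scaling (-0.85) and after removal of the GC and length trend (-0.99). The metallothionein count higher in HuES64 stayed within 1.5 times of the reported one. The number of SLC39 genes at least 2-fold higher in HuES53 was 2 with TPM scaling, and that higher in HuES64 was 1 with a pseudocount of 0.1 or 0.5 FPKM, against 0 as reported. The SLC39 median was 0.1812 with TPM scaling and 0.0415 with the trend removed. For all genes the 2-fold counts higher in HuES53 and in HuES64 were 585 and 405 with a pseudocount of 0.1 FPKM. With a mean of at least 5 FPKM 161 were higher in HuES53, with TPM scaling 774 were, with the trend removed 131 were higher in HuES64, and without overlapping genes 142 were. The median of all genes was -0.0075 with a mean of at least 5 FPKM and -0.0013 with median of ratios scaling. TPM scaling turned the sign of 3 members and trend removal that of 5, all of them transporters under 2-fold different as reported. Apart from changes of filter or of the genes tested, the cause was not tested. No paired analysis was possible because each line has a single library. Depth limits the members that rest on few fragments, among them MT1A, MT1B, MT1L, SLC39A5, SLC39A2, SLC30A3 and SLC30A10.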
